A study of Mus musculus with 2 samples.

Results

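Shared promoters of adjoining genes were examined in a map of histone H3 trimethylated at lysine 4 (H3K4me3), a mark of active and poised promoters, made by chromatin immunoprecipitation and sequencing. The chromatin came from NOS1+ neurons sorted from the small intestine of mice. NOS1, the neuronal nitric oxide synthase, marks the neurons that relax gut muscle through nitric oxide. The series held 1 H3K4me3 library and 1 input library, so every value below describes 1 library and has no replicate check. The sources used here give no strain, age, sex or number of animals, and no treatment or genotype beyond the NOS1+ sort.

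The members were chosen by 2 properties of a peak in the deposited list, its width and its position. A member is a peak under 3000 bp wide that covers the facing ends of 2 neighbouring protein-coding gene models that do not overlap and lie 1 kb or less apart. Of 29924 peaks, 515 met the rule. They covered the facing ends of 522 pairs with 1019 genes, since 7 peaks lay over 2 pairs whose models share a facing end, such as Rad17/Ak6 and Rad17/Taf9. There were 2045 such close pairs in all, so 25.5% of them lay under a member peak, and 28.1% under a peak of any width. For comparison, 47.6% of the 21887 protein-coding gene models had a peak over at least 1 of their ends. Width and position made a peak a member, so the values of width, reach and peak score given for members are a description and no test was made on them.

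When the facing ends are both starts, the genes are divergent (head-to-head) and their promoters lie in 1 stretch of DNA, often a CpG island, from which RNA polymerase sets out in both directions. H3K4me3 is written by the SET1 and MLL complexes, which are drawn to CpG-rich DNA, and it sits on the nucleosomes beside a start site, the stretch at the start itself being poor in nucleosomes. Mammalian divergent pairs are known to be rich in genes for mitochondrial function and DNA repair. In tandem pairs the end of one gene faces the start of the next, and in tail-to-tail pairs both facing ends are the last bases of genes.

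The label of the cells was compared with the peaks within 1 kb of marker gene ends. All 8 pan-neuronal markers had a peak, and 4 of 6 nitrergic markers did. Nos1 itself and Vip had none there, but a peak at a start inside the gene model, away from its ends, would be missed. None of 5 leukocyte markers had a peak, whereas 3 of 4 glial, 4 of 4 smooth muscle, 2 of 3 epithelial and 2 of 3 endothelial markers had 1 or more, so markers of other gut cells carried peaks as well. Their part in the shared promoters was not tested. The widest peak at a marker lay at the glial gene Sox10 (6775 bp), against 4843 bp at Etv1 and at most 1891 bp at the pan-neuronal markers. The share of all genes with a peak within 1 kb of an end is not given here. Directly over an end it was 47.6%, so the smaller marker counts may be near the background. None of the 33 marker genes belonged to a member pair. A peak list holds no read counts, so the depth of both libraries is unknown.

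Promoter windows from the RefSeq table on GRCm38.p6, whose coordinates are those of mm10, run 250 bases before to 50 after the listed start, so the start of the named gene is base 251. Of the 1019 member genes, 867 had a window. The first set shows divergent pairs under member peaks with very high scores, or from the mitochondrial and DNA repair lists; the window of the gene on the plus strand also holds most of its partner's promoter. Capitals mark the letters of the motifs searched on both strands, named with the motif shares further on. Gskip (chr12:105685102-105685401, plus strand) shares the highest-scored member peak with Atg2b. Wdr77 (chr3:105959248-105959547) and Trmt2a (chr16:18248633-18248932) follow among divergent pairs with windows for both genes. Zmat5 (chr11:4704406-4704705) pairs with Uqcr10 and Xpo5 (chr17:46202561-46202860) with Polh. Mocs3 (chr2:168230372-168230671), which pairs with Dpm1, was added after its values were seen because it holds 2 ETS matches.
Gskip promoter window: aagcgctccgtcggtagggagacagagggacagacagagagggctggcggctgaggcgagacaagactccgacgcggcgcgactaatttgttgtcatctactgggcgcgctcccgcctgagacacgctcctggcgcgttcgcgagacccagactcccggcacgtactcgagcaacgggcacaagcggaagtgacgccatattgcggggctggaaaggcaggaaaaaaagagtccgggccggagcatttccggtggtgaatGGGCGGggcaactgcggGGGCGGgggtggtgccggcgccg
Wdr77 promoter window: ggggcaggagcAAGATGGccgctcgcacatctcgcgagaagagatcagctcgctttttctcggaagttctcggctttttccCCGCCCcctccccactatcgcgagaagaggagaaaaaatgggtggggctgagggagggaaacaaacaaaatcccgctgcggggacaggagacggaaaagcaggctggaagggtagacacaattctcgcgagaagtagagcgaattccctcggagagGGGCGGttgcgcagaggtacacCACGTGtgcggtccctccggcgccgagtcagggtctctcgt
Trmt2a promoter window: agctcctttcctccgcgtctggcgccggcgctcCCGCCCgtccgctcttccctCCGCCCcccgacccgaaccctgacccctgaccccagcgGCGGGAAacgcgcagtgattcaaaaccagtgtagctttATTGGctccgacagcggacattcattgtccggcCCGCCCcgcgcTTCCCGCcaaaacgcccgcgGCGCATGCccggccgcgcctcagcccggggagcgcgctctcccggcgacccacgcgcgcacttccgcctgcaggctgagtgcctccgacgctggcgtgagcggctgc
Zmat5 promoter window: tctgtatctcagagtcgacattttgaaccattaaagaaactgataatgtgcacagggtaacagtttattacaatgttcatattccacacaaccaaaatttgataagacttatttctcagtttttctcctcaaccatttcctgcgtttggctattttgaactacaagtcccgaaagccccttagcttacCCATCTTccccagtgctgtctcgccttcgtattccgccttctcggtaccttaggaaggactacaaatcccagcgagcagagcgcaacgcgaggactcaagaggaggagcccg
Xpo5 promoter window: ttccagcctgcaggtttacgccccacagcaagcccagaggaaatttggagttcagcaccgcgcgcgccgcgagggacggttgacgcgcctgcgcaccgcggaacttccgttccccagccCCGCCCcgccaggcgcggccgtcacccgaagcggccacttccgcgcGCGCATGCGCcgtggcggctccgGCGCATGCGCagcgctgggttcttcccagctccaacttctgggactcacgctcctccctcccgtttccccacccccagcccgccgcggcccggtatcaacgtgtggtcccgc
Mocs3 promoter window: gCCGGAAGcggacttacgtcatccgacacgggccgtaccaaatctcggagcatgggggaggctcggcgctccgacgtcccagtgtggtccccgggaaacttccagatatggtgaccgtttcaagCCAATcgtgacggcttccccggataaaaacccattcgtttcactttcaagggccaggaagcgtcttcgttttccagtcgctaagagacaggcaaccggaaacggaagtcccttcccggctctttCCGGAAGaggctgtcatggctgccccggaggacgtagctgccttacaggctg

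The start of the partner gene falls within most of these windows. The listed start of Atg2b lies at base 140 of the Gskip window, that of Ranbp1 at base 62 of the Trmt2a window, that of Polh at base 81 of the Xpo5 window and that of Dpm1 at base 8 of the Mocs3 window. The 6 windows differ in base composition. The Trmt2a window has 42 CpG and 72.0% G+C, whereas the Zmat5 window has 12 CpG and 45.0% G+C, yet the peak over Uqcr10/Zmat5 had a score of 252 and a width of 2181 bp. In the Xpo5 window the capitals before the start include the letters GCATGCGC of the NRF1 motif, which matched at bases 166, 168, 189 and 191, counting both strands.

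Strand separated the pairs. Both strands were listed for 407 of the 522 member pairs. Of these, 321 were head-to-head (78.9%, exact 95% interval 74.6 to 82.7%), 84 tandem (20.6%) and 2 tail-to-tail (0.491%). Among all 1462 close pairs with both strands, the shares were 39.6% head-to-head, 31.0% tandem and 29.4% tail-to-tail, so the 3 orientations were much less unequal before the peaks were considered. Intervals here count pairs or promoters within 1 library and cover neither animals nor sorts.

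Read the other way, 345 of 579 close head-to-head pairs (59.6%, 55.5 to 63.6%) had 1 peak of any width over both facing ends. The share was 90 of 453 for tandem pairs (19.9%, 16.3 to 23.8%) and 3 of 430 for tail-to-tail pairs (0.698%, 0.144 to 2.03%). No peak touched the ends or the gap in 11.4% of head-to-head, 43.7% of tandem and 97.0% of tail-to-tail pairs. Where a tandem pair had a peak over 1 facing end only, that end was the start of the downstream gene in 124 of 136 pairs.

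**Figure D1:**
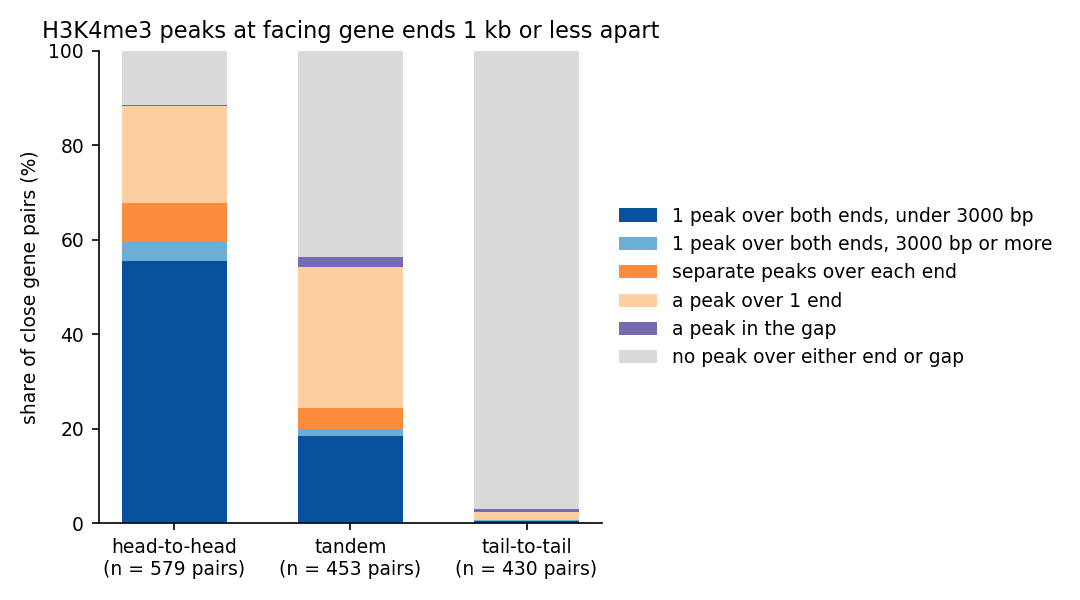
Share of close gene pairs (y axis, percent of pairs) in each peak state, for head-to-head, tandem and tail-to-tail pairs with both strands listed; stacked segments add up to all pairs of an orientation. The dark blue member segment holds 321 of 579 head-to-head, 84 of 453 tandem and 2 of 430 tail-to-tail pairs.

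The gap between the models set a second pattern. Members had a median gap of 86 bp, against 251 bp for all close pairs and 352 bp for pairs with no peak, and 296 of the 522 member gaps were 100 bp or less. These groups differ in orientation. Within head-to-head pairs the median gap was 67 bp for members and 101 bp for all close pairs. A member peak has to span the whole gap, so part of this difference is built into the rule. Head-to-head pairs up to 100 bp apart had a shared peak in 221 of 288 cases (76.7%, 71.4 to 81.5%). The share was 41.8% above 100 and up to 250 bp, 52.4% above that and up to 500 bp and 26.2% above 500 and up to 1000 bp, the last with 42 pairs. The intervals of the middle bins overlap. Tandem pairs stood at 34.5% and 38.5% in the nearest bins, and at 18.2% and 9.18% in the wider ones.

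**Figure D2:**
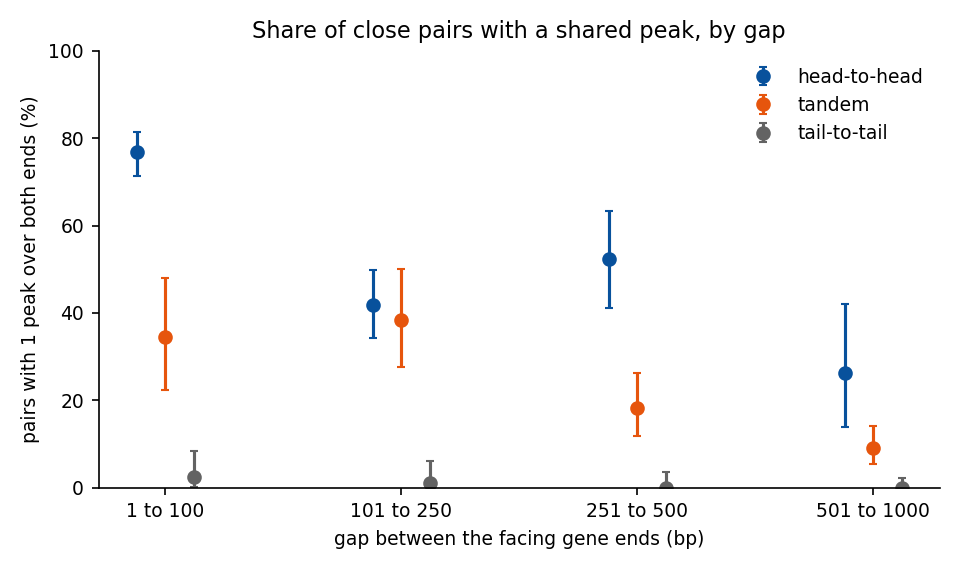
Share of close pairs with 1 peak of any width over both facing ends (y axis, percent) by the gap between the gene models (x axis, bp), with exact 95% intervals over pairs. Head-to-head pairs start at 76.7% in the smallest bin and stand at 26.2% in the widest, while tail-to-tail pairs stay at 2.44% or below.

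The smallest gap was 1 bp, in Ears2/Ubfd1, Capza1/St7l, Smpd2/Ppil6 and Klhl18/Kif9, all head-to-head. Ears2 charges the mitochondrial tRNA for glutamate, Capza1 caps actin filaments and Kif9 is a kinesin motor. Their peaks were 2157, 2622, 2088 and 1915 bp wide in that order. At the other end stood the tandem pair Supt16/Chd8 with a gap of 912 bp and a peak of 2113 bp, head-to-head Frg2f1/Foxj3 with 892 bp and Tst/Mpst, whose strands are not both listed, with 847 bp. Tst and Mpst encode related sulphurtransferases.

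Peaks over shared promoters were wide and high for this list. The median member was 1879 bp wide (interquartile range 1525.5 to 2238.5, range 249 to 2996 bp). Peaks under 3000 bp over exactly 1 protein-coding gene end, of which there were 8024, had a median of 1438 bp, and all 29129 peaks under 3000 bp one of 654 bp. The score is the authors' own value for each peak, on a scale that the sources used here do not give, and it serves here only to rank peaks within this list. Its median was 185 in members (3.17 to 312), 145 in peaks over 1 end and 32.6 in all peaks under 3000 bp. Of the members, 416 of 515 (80.8%) lay in the upper 25% of scores of the whole list, against 51.7% of peaks over 1 end. Covering a pair of ends needs width, so part of this difference is built into the rule.

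Width and score went together only loosely across the 522 member pairs (Pearson r = 0.35, Spearman rho = 0.26), and the gap was weakly related to width (r = 0.18) and score (r = -0.14). These points share 1 library, and 7 peaks enter more than once. Among the 316 head-to-head member peaks the median was 1920 bp for width and 188 for score. The 83 tandem member peaks stood at 1716 bp and 165.

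The highest score, 312, belonged to Atg2b/Gskip (peak chr12:105683708-105686466, 2759 bp, gap 55 bp). Atg2b moves lipid to growing autophagosomes and Gskip binds the kinase GSK3. Cdiptos/Cdipt followed with 308 at chr7:126975620-126977688; Cdipt makes phosphatidylinositol. Ndufs6/Mrpl36 had a score of 279.8 on a peak of only 1288 bp (chr13:73327831-73329118), with a gap of 21 bp between a complex I subunit and a mitochondrial ribosomal protein. A score of 277.8 was reached by Atp5pb/Wdr77, which joins a stalk subunit of ATP synthase to a partner of the arginine methyltransferase Prmt5, and also by Ranbp1/Trmt2a, a regulator of the Ran cycle and a tRNA methyltransferase.

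The rest of the 10 highest were Dpm1/Mocs3, Cfap52/Stx8, Gak/Tmem175, Slc7a6os/Prmt7 and Prkag1/Kmt2d, with scores between 267 and 273. Dpm1 supplies mannose for glycosylation, Stx8 is a SNARE of endosomes and Gak uncoats clathrin vesicles. Prkag1/Kmt2d is tandem, 8 of the other pairs are head-to-head, and the strands of Cdiptos/Cdipt are not both listed; Kmt2d is itself a methyltransferase of H3K4. Its peak reached 962 bp past the start of Prkag1 and 278 bp back over the end of Kmt2d.

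At the low end, Smc1b/Ribc2 had a score of 3.17 on 261 bp, Pinlyp/Xrcc1 one of 7.02 on 376 bp and the tail-to-tail pair Phf1/Cuta one of 7.32 on 249 bp. Smc1b is the cohesin subunit of meiotic cells, and Xrcc1 is a scaffold of single-strand break repair. Dmtn/Fgf17 (12.9) and Shisa7/Isoc2b (15.1) were next. Narrow did not always mean low, since the 478 bp peak of tandem Cirbp/Fam174c had a score of 155; Shc1/Pygo2, also tandem, had 50.5 on 514 bp.

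The widest members ended close to the limit. Slc39a7/Rxrb was 2981 bp wide with a score of 205, Psd/Fbxl15 2984 bp with 134 and Slc26a8/Mapk14 2996 bp with 216. Just above the limit, and so not members, stood Usf2/Lsr at 3005 bp (227), Tead3/Tulp1 at 3030 bp (176) and Mapk1ip1/Ppp2r2d at 3042 bp (226). The scores on both sides of the limit overlap. In all, 52 close pairs had a shared peak of 3000 bp or more, and the widest such peak was 8613 bp.

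Head-to-head members reached into both genes, with no common lean to one side of the chromosome. Their peaks reached a median of 868 bp into the gene at the lower coordinate and 932 bp into the one at the higher coordinate (321 pairs). In 247 of the 321 pairs (76.9%) both reaches were 500 bp or more, and in 49 (15.3%) one was at least 3 times the other. Peaks over exactly 1 end that was a gene start (6242 peaks) reached a median of 1057 bp into the gene and 343 bp before the start. Within a pair the reaches were often unequal: they differed by 301 bp in the median pair, with quartiles at 145 and 600 bp, against a median reach of 896 bp into either gene. The peak centre lay inside the gap in 61 of the 321 pairs (19.0%).

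Tandem members were one-sided. Their peaks reached a median of 1078 bp past the start of the downstream gene and 285.5 bp back over the end of the upstream gene (84 pairs), and 73 of the 84 (86.9%) reached further into the downstream gene. The first value lies near the 1057 bp that single-start peaks reached into the gene. The second is counted from the end of the upstream gene and leaves out the gap, a median of 221.5 bp in these pairs. It is therefore not comparable with the 343 bp that single-start peaks reached before the start. The peak centre stood a median of 150.5 bp from the middle of the gap in head-to-head pairs, in either direction, and 393.75 bp in tandem pairs. In its reach past the downstream start a tandem member resembles a peak at 1 start. It also runs over its neighbour's last bases, and the word shared holds for the position of the peak only.

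**Figure D3:**
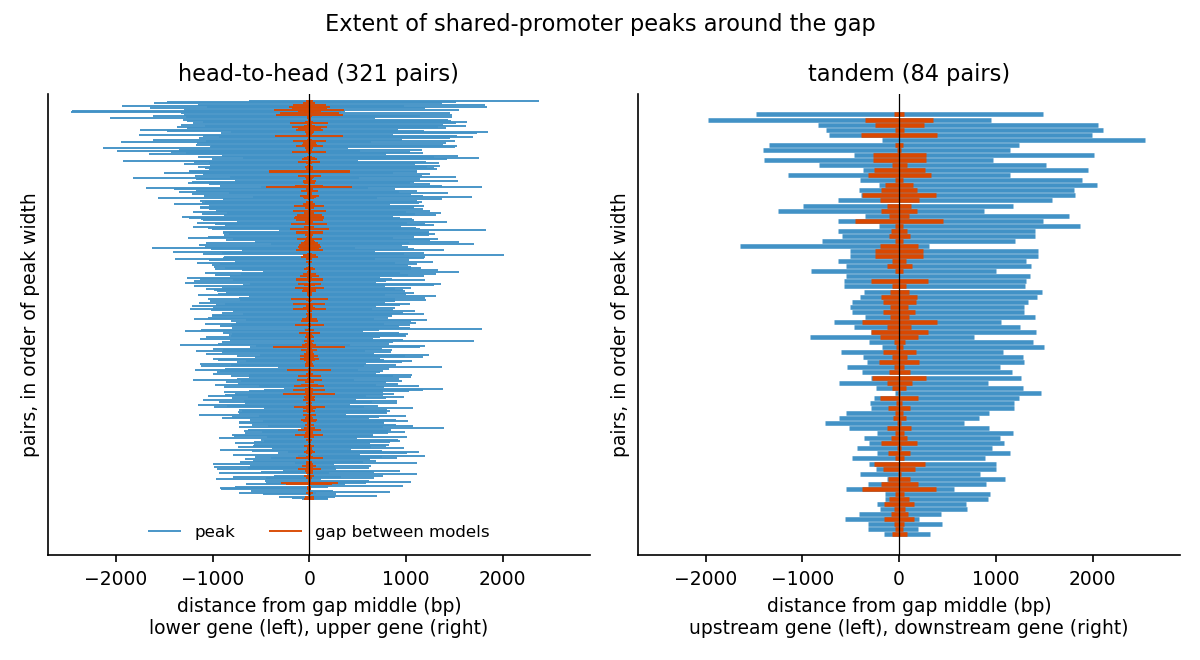
Extent of each member peak (blue line) and of the gap between its gene models (orange line) in bp from the middle of the gap (x axis), pairs ordered by peak width (y axis); left 321 head-to-head pairs by coordinate, right 84 tandem pairs with the downstream gene to the right. Head-to-head peaks lie on both sides of the gap, with medians of 868 and 932 bp, whereas tandem peaks extend mainly into the downstream gene, with medians of 1078 and 285.5 bp.

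Only 2 tail-to-tail pairs were members. The peak of Uba7/Inka1 was 2496 bp wide with a score of 165, but it reached 23 bp into Uba7, the activating enzyme of the ubiquitin-like protein ISG15, and 2305 bp into Inka1, an inhibitor of the kinase Pak4. Phf1/Cuta had the narrowest of all member peaks. Head-to-head examples of an uneven reach were Slc26a8/Mapk14, with 590 and 2336 bp, and Frg2f1/Foxj3, with 56 and 1340 bp.

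The lists of the respiratory chain, tRNA synthetases, the mitochondrial ribosome and DNA repair and replication had the highest shares of member genes. Of all protein-coding genes, 4.66% belonged to a member pair (1019 of 21887), and 16.8% to a close pair. For the respiratory chain the shares were 25.9% (29 of 112) and 45.5%, for aminoacyl-tRNA synthetases 18.9% (7 of 37) and 35.1%, for the mitochondrial ribosome 17.9% (14 of 78) and 38.5%, and for DNA repair and replication 16.5% (20 of 121) and 38.8%. The lists that held more members thus also held more close pairs, which depends on the genome and not on the library. Among close pairs, 57.7% of the 52 respiratory chain pairs had a shared peak, against 28.1% of all close pairs and 59.6% of close head-to-head pairs. Among other lists this share was, for example, 47.4% for transcription machinery and 24.1% for chaperones. The lists were not matched for orientation, so its part in these shares was not tested. Most lists were drawn by symbol prefix, such as Hsp, Dnaj and Cct for chaperones or Slc for solute carriers. They were not curated by function and can hold genes of other function.

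The 29 respiratory chain member pairs had a median score of 206 and held subunits or assembly factors of every complex of the chain. Besides Ndufs6, Atp5pb and Uqcr10 they included Sdhaf2/Cpsf7 (238, gap 14 bp), an assembly factor of succinate dehydrogenase beside a cleavage factor of messenger RNA. The strands of 23 of the 29 were listed, and all 23 were head-to-head. Of the 15 close pairs of this list with no peak, 9 were tail-to-tail, 3 were tandem, such as Atp5d/Midn, and 3 had a strand that is not listed.

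The mitochondrial ribosome list gave 13 member pairs with a median score of 182. After Ndufs6/Mrpl36 came Mrpl49/Fau (213), Ncapd2/Mrpl51 (212) and Ptcd2/Mrps27 (209.9). In Mrpl46/Mrps11 the peak covered the ends of a large-subunit and a small-subunit gene. Of the tRNA synthetases, Iars2/Bpnt1 had the highest score, 236, with Lyrm4/Fars2 (216) and Ears2/Ubfd1 (202) behind it; Iars2, Fars2 and Ears2 all act in mitochondria.

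DNA repair and replication genes formed 21 member pairs with a median score of 200.3. Polh/Xpo5 led with 259.5 (chr17:46201917-46203779); Polh is the polymerase that copies past ultraviolet lesions and Xpo5 exports microRNA precursors. Toe1/Mutyh (252), Pms1/Ormdl1 (245) and Wrn/Purg (233) followed, and Mutyh and Pms1 act in base excision and mismatch repair. Rad51c/Tex14, a head-to-head pair with a gap of 59 bp, had no peak over its ends or gap, but a peak lay within 500 bp on 1 side. Head-to-head Xrcc3/Zfyve21 had no peak over its ends or gap either, and there a peak flanked the pair on each side.

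Other lists had lower shares, the first of them close to the 16.5% of DNA repair and replication. The share was 15.2% for transcription machinery (16 of 105), 14.1% for cytosolic ribosomal proteins (12 of 85), 13.7% for the proteasome (7 of 51), 12.7% for splicing factors (10 of 79), 10.3% for cilium genes (10 of 97), 9.32% for membrane traffic (15 of 161) and 8.33% for chaperones (7 of 84). Transmembrane (Tmem) genes stood at 6.30%, zinc finger (Zfp) genes at 4.79%, solute carriers at 4.27% and genes with predicted or clone names at 1.72%. No member was found among 1110 olfactory receptor genes, 53 keratins, 44 collagens or 17 peroxisome (Pex) genes, but these lists held only 5, 2, 3 and 3 close pairs that could have been members. The highest-scored zinc finger pairs, Zfp653/Ecsit (260.5), Uckl1/Zfp512b (220.1) and Zfp513/Ppm1g (206), were all tandem.

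**Figure D4:**
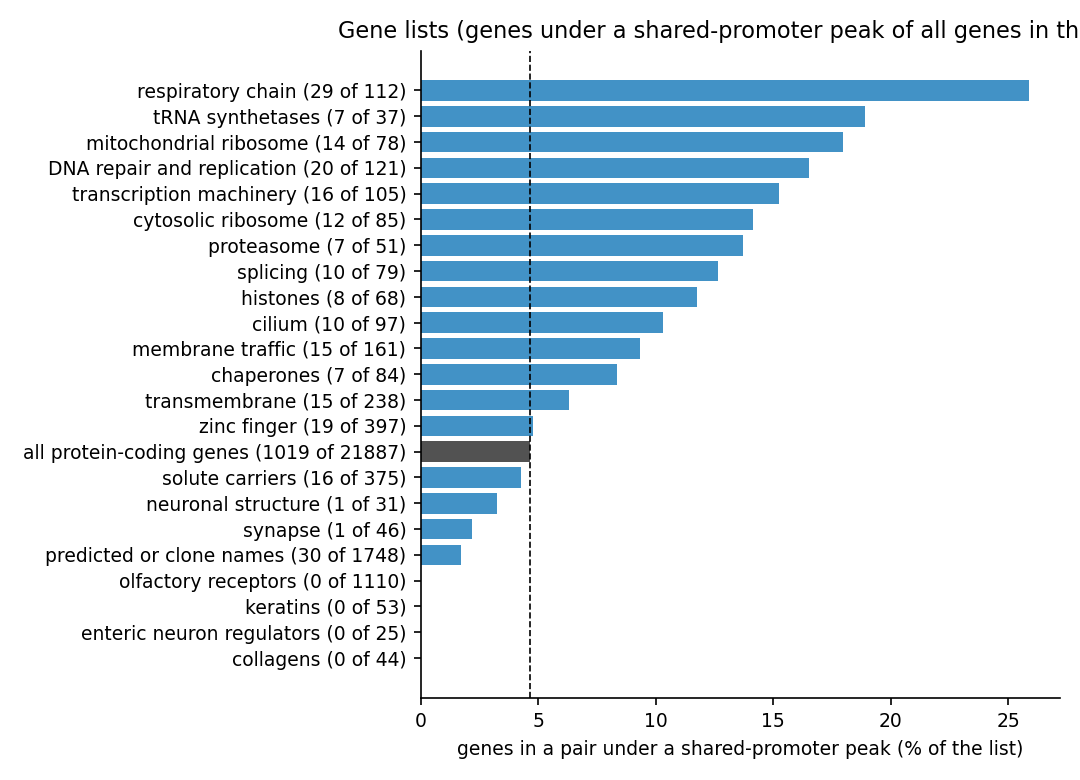
Share of the genes of each list of at least 20 genes that belong to a pair under a member peak (x axis, percent of the list), with the counts beside each name; the dashed line marks all protein-coding genes, 4.66%. The respiratory chain has the highest share, 25.9%, and the neuronal structure and synapse lists hold 1 member gene each.

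Histone genes lie close together, 64.7% of them in close pairs, and 8 of 68 (11.8%) belonged to a member pair. The 4 member pairs had a median score of 89.4, against 185 over all member pairs. H2bc6/H1f4 (121), H3c13/H2bc18 (89.0) and H2ac13/H3c10 (27.2) were tandem, and the divergent pair H2ac15/H2bc15 had a score of 89.8 on 1511 bp. Of 10 close head-to-head pairs of histone genes it was the 1 with a shared peak. A further 6, such as H2bc13/H2ac13 and H2ac11/H2bc11, had a peak on each side with a break between, and 3, H2bc23/H2ac23, H2ac24/H4bc24 and the testis histones H2bc1/H2ac1, had no peak within 500 bp on either side. Reads of near-identical histone copies can be lost or split in alignment, so these absences are uncertain.

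Of the neuronal lists, the 31 neuronal structure genes gave 1 member pair, Eno2/Lrrc23 (3.23% of the genes), and the 46 synapse genes 1, Med12/Nlgn3 (2.17%). With 4.66% of all genes in member pairs, counts this small are near the background. Eno2, neuron-specific enolase, follows Lrrc23 in tandem with a gap of 196 bp. The peak (chr6:124768367-124770120, 1754 bp, score 115) reached 1306 bp past the start of Eno2 and 251 bp over the end of Lrrc23. In Med12/Nlgn3 on the X chromosome the peak was 2419 bp wide with a score of 44.9; it reached 125 bp into the Mediator subunit gene Med12 and 2048 bp into Nlgn3, a postsynaptic adhesion protein. None of the 25 enteric neuron regulators lay in a close pair at all. Of 15 nitrergic genes only Dynll1, a dynein light chain that binds NOS1, did, and Coq5/Dynll1 had no peak over its ends or gap. The close pairs of Elavl3 and Rbfox3, Prkcsh/Elavl3 and Engase/Rbfox3, were tail-to-tail, with no peak over the facing ends.

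The window of Eno2 (chr6:124769624-124769923, minus strand) is shown because it is the 1 neuronal promoter under a member peak with a window. The model of Lrrc23 ends at its base 55, and capitals mark a match to TATAAA on the opposite strand at base 50, far from the start at base 251.
Eno2 promoter window: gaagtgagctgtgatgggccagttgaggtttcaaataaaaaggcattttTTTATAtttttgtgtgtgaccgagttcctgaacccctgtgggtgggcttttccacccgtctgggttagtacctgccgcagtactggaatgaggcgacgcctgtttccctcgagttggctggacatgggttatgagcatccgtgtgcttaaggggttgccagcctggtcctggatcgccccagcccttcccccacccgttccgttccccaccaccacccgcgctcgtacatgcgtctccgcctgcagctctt

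Its composition, 15 CpG and an observed over expected CpG ratio of 0.63, is below that of most members. Of the member genes, 723 had a listed start under the shared peak. Their windows had a median observed over expected CpG ratio of 0.874, against 0.777 for 8527 other promoters with a peak over the start, 0.577 for all 17492 promoters and 0.209 for 8029 promoters without a peak over the start. Head-to-head members stood at 0.892 and the downstream genes of tandem members at 0.753, below the other promoters with a peak. Median G+C was 63.3% in members and 62.3% in the other promoters with a peak, so the distance was in CpG more than in G+C.

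Motif letters were counted on both strands of these windows. The ETS core CCGGAAG occurred in 233 of 723 member windows (32.2%, 28.8 to 35.8%), against 17.1% (16.3 to 17.95%) of other promoters with a peak and 11.9% of all promoters. It was as frequent with 1 window per pair (32.4%, 377 pairs), in head-to-head members (31.7%) and in the 80 downstream genes of tandem members (32.5%, 22.4 to 43.9%). ETS proteins are a family of activators, GABPA among them, whose core letters are common in promoters of housekeeping genes. The YY1 letters AAGATGG stood in 11.1% of member windows (8.87 to 13.6%), against 6.53% of other promoters with a peak, and in 3.75% of the downstream tandem genes (0.780 to 10.6%). In close head-to-head pairs without a shared peak (461 windows) the YY1 share was 9.76% (7.21 to 12.8%). The ETS share there was 23.4% (19.6 to 27.6%). Counted by window, the YY1 interval overlapped that of members and the ETS interval did not. Both windows of a pair can hold the same bases, and the 461 windows include pairs with no peak. With 1 window per pair, ETS stood in 26.2% of head-to-head pairs with a separate peak on each side (interval up to 33.2%). The member share counted so was 32.4% (interval from 27.7%). These intervals overlap, so a difference in ETS between members and such pairs is not shown.

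Other motifs were nearer to the background. The SP/KLF box GGGCGG was found in 67.8% of member windows, 69.5% of other promoters with a peak and 46.3% of all promoters. The NRF1 letters GCATGCGC were found in 7.47%, 5.38% and 3.61%, the E2F letters GCGGGAA in 9.13%, 9.16% and 6.01%, the E-box CACGTG in 11.5%, 10.2% and 7.91%, and the cyclic AMP element TGACGTCA in 4.43%, 3.28% and 2.33% of the same groups. The TATA letters TATAAA were rarest in members, with 4.43% against 6.19% and 13.3%. The CCAAT box of NF-Y stood in 32.9%, 37.5% and 39.2%. A match is a run of letters and no evidence that a factor binds.

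Where the starts of a head-to-head member pair were both listed (268 pairs), they lay a median of 109.5 bp apart. In 203 of these pairs both starts fell in 1 window, and the 98 ETS matches there could be placed. Of the matches, 47 (48.0%, 37.8 to 58.3%) lay between the starts, a stretch that made up 32.4% of the window bases. The place of ETS matches in promoters of single genes was not counted, so this share is not shown to be particular to pairs. The 103 pairs with an ETS match in either window had a median score of 199.8, and the 165 without one had 183.8; their median widths were 1956 and 1993 bp.

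The 234 head-to-head pairs without a shared peak were mostly not bare. In 187 of them (79.9%, 74.2 to 84.9%) a peak lay within 500 bp on each side, so that the pair was split by a break between 2 peaks. The break measured 138 bp in the median pair, with quartiles at 97.5 and 179.5 bp and a range of 53 to 436 bp, and the flanking peaks had median widths of 943 and 994 bp and median scores of 157 and 164. Such flanking was found in 38 of 363 tandem pairs without a shared peak (10.5%) and in 1 of 427 tail-to-tail pairs. With members, wider shared peaks and split pairs together, 532 of 579 head-to-head pairs (91.9%, 89.4 to 94.0%) carried the mark on both sides or across. A list that joins nearby peaks would count most split pairs as shared. How the break depends on depth, fragment length and the settings of the peak caller was not tested.

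Only 27 of the 579 head-to-head pairs (4.66%) had no peak over the ends or within 500 bp of either side. The pairs named here were chosen after their values were seen. They include genes used in few tissues, such as the olfactory receptors Olfr181/Olfr183, the liver enzymes Bhmt2/Dmgdh and the epithelial oxidase and its maturation factor, Duox2/Duoxa2. They also include genes that most cells use, such as Rps2, a ribosomal protein, in Rnf151/Rps2, Ctnnd1, the catenin that binds cadherins, in Ctnnd1/Btbd18, and the transcription factor Deaf1 in Deaf1/Eps8l2. An active start that lies inside a gene model, away from its end, would be missed by this measure.

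Split pairs are shown beside the members by the 3 with the highest lower score of their 2 peaks. Cdnf (chr2:3512815-3513114), a neurotrophic factor gene, pairs with Hspa14, and the break spans bases 63 to 206 of its window. Apip (chr2:103073425-103073724) pairs with Pdhx, a subunit of the pyruvate dehydrogenase complex, and the break spans bases 82 to 187. Safb (chr17:56584732-56585031) pairs with its relative Safb2, and the break ends at base 76. All 3 are on the plus strand and capitals mark motif letters as above.
Cdnf promoter window: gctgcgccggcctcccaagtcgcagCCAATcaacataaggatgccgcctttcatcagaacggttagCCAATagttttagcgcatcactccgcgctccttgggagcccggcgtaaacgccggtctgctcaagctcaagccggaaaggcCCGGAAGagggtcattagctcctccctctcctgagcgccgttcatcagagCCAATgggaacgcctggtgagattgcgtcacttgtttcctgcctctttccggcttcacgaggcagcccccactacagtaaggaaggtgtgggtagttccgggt
Apip promoter window: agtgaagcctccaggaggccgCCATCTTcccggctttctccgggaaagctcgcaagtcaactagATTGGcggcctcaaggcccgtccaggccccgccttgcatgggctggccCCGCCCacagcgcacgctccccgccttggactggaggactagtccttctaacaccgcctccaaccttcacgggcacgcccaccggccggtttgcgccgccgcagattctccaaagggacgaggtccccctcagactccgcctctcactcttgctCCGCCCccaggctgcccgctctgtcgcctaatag
Safb promoter window: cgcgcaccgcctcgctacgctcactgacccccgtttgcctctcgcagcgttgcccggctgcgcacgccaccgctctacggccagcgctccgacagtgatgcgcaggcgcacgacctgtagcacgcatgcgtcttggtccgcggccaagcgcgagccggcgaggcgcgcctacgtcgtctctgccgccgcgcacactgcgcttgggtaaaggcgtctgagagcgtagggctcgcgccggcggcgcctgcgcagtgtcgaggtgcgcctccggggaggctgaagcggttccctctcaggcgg

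The Cdnf window holds the CCAAT letters at bases 26, 67 and 198, the last 2 within the break, and the Apip window holds them at base 65 on the opposite strand, outside it. The Safb window has no match to any of the 9 motifs. CCAAT stood in 189 of 583 windows of head-to-head members (32.4%, 28.6 to 36.4%), against 238 of 367 windows of split pairs (64.9%, 59.7 to 69.7%). With 1 window per pair the split share was 119 of 183. No other motif moved as much between these groups: ETS stood in 31.7% of head-to-head member and 25.9% of split windows, and SP/KLF in 67.2% and 71.9%.

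The same contrast was present away from close pairs. Of genes outside close pairs whose listed start lay in a break between 2 peaks, 56.8% had CCAAT in the window (52.2 to 61.2%, 481 genes), against 36.3% of those with the start under a peak (35.2 to 37.5%, 7187 genes). In the split pairs with a placed break, 206 of 278 CCAAT matches (74.1%) lay in the break, which made up 39.2% of the window bases, and 100 of 187 pairs had at least 1 there. CCAAT boxes lie at a typical distance before the start in most promoters. The 150 bases before the start, of 300 in a window, held 68.9% of CCAAT matches in head-to-head members and 72.8% in split pairs. The place of the break relative to the start was not measured. Whether the overlap of break and CCAAT goes beyond their distances from the start was not tested. The windows of head-to-head members had a median CpG ratio of 0.892 and those of split pairs one of 0.827, with a median G+C of 64.0% and 60.0%.

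**Figure D5:**
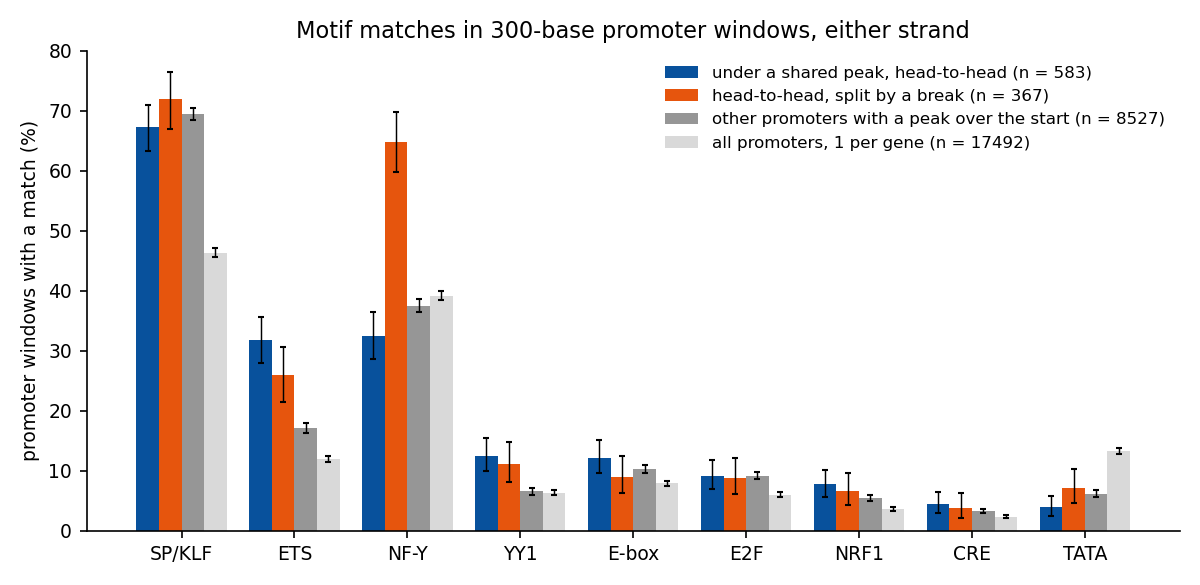
Share of promoter windows with a match to each motif (y axis, percent), with exact 95% intervals over windows, for head-to-head members (583), split head-to-head pairs (367), other promoters with a peak over the start (8527) and all promoters (17492). CCAAT (NF-Y) stands at 32.4% in head-to-head members and 64.9% in split pairs, and ETS is higher in both than in the other promoters with a peak, 17.1%.

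Members were found on every autosome and on the X chromosome. Chromosome 11 had the most member pairs, 48, and the X chromosome 5. On X, 5 of 44 close pairs had a shared peak (11.4%, 3.79 to 24.6%), against 28.1% of all close pairs. Chromosome 15 had the highest share, 35.4% of 82 pairs (25.1 to 46.7%), and the other autosomes lay between these values.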

How the data were processed

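H3K4me3 ChIP-seq and input libraries were made from sorted NOS1+ neurons of the mouse small intestine, 1 of each. BWA, Picard, MACS2 and the build mm10 are named in the submitters' processing notes, without versions, roles or settings. The authors' deposited peak list gives each peak a position and a score; per the file headers it comes from MACS2. For the scale of the score, the threshold, the treatment of duplicates and the depth, nothing is given in these sources, and low depth would narrow, split or lose peaks. The input library enters no step here.

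Peaks were compared with RefSeq gene models on GRCm38.p6 in Python 3.11.15 with pandas 2.3.3, numpy 2.4.6 and scipy 1.17.1; plots used matplotlib 3.10.9. Strand and promoter windows came from a RefSeq promoter table, which is incomplete, so orientation was known for 1462 of 2045 close pairs, and windows on chromosome 18 were not used here. A peak over a pair contains the last base of one model and the first of the next. Shares carry exact Clopper-Pearson 95% intervals. With 1 library no test was made. The pairing code was tested on simulated data.

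The members, the 24 gene lists, the motifs and the rules for named pairs were chosen with earlier results of these data known. Named pairs are those with the highest and lowest scores, widths and gaps, those near 3000 bp and the highest-scored pairs of each list. Split pairs and breaks were defined after the data were seen.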

Additional observations from a re-analysis of the deposited data

How the results depend on the processing

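The 95% interval of each value set the limit for calling it changed, and a count was called changed beyond 1.5 times. Of 109 recomputed values, 81 stayed within these limits and 28 did not.

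Counting a peak that touches the gap or either end by 1 bp gave 976 member peaks, 51.4% of close pairs with a peak (88.6% head-to-head, 56.3% tandem, 3.02% tail-to-tail), a median width of 1508 bp, a median score of 172, 65.8% head-to-head and a median offset of 370.5 bp. This setting also takes single-end peaks. A width limit of 2000 bp gave 306 members with medians of 1630 bp and 176, and no limit gave a median width of 1947 bp. Merging peaks closer than 1 kb gave a median width of 2024 bp and a share of 42.5% (91.9% head-to-head, 28.7% tandem). The 25% of peaks with the highest scores gave a share of 22.7% (51.3% head-to-head, 11.7% tandem), a median score of 196 and 84.3% head-to-head. With gaps up to 500 bp the share was 36.7% (28.0% tandem) and with gaps up to 2000 bp it was 19.4% (54.8% head-to-head, 11.0% tandem). Head-to-head members alone had a median CpG ratio of 0.892. Under all settings run, head-to-head pairs had the highest share with a shared peak and tail-to-tail pairs the lowest.

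The width limits do not enter the share of pairs with a peak of any width and were not applied to it. The settings by orientation, 1 window per pair and the distances of 250 and 1000 bp for split pairs (79.5% and 79.9%) were chosen after seeing the data. No paired analysis was possible because there is 1 H3K4me3 library. The unknown depth limits every statement on a missing peak, a width or a break.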
